A study of Macaca fascicularis with 23 samples.

Results

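The genes of de novo lipogenesis, the route by which the liver makes fatty acids from carbohydrate, were followed in cynomolgus monkeys (Macaca fascicularis) dosed with ciprofibrate, a fibrate and PPAR-alpha agonist that acts through this nuclear receptor. All probe sets that the array annotation assigned to ME1, FASN, ACLY, ACACA or SREBF1 were taken, which gave 7 of the 12625 probe sets. The 5 genes are among the 8229 that the annotation gives to probe sets naming 1 gene alone. ME1 had 3 probe sets (31824_at, 837_s_at and 33644_at), and FASN (38429_at), ACLY (40881_at), ACACA (38528_at) and SREBF1 (32135_at) had 1 each. Liver RNA was measured on 23 arrays, 1 per animal. The 4-day groups were vehicle (n = 2) and 400 mg/kg/day (n = 2). The 15-day groups were vehicle (n = 3) and ciprofibrate at 3, at 30, at 150 and at 400 mg/kg/day (n = 4 per dose). No genetic change or other agent is named for any group, the labels used here give no age, and the vehicle is not specified. The array was annotated with human genes, and the fit of its probes to the monkey sequence is not known here.

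In de novo lipogenesis, ATP citrate lyase (ACLY) splits citrate in the cytosol to give acetyl-CoA, acetyl-CoA carboxylase alpha (ACACA) turns it into malonyl-CoA, and fatty acid synthase (FASN) builds palmitate from these units. Cytosolic malic enzyme (ME1) oxidises malate to pyruvate and yields NADPH, the reductant that fatty acid synthase consumes. SREBF1 encodes no enzyme but the transcription factor SREBP-1, whose liver form SREBP-1c is raised by insulin and feeding and switches on the genes of the pathway.

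The 5 genes were not called alike, which by itself does not show that they responded unequally. ME1 rose at 400 mg/kg/day at 15 days on both of its probe sets that were bright enough to test, and SREBF1 rose with dose. ACLY and ACACA passed the limma test in none of the comparisons of groups or days made. FASN varied more between animals of the same group than 98.5% of the probe sets tested, and it also passed in none. Intensities are the deposited array values on a linear scale, changes are differences of log2(intensity + 16) with their standard error (SE), and a fold is that change on the same scale, so folds of dim probe sets are understated. A probe set was called when its adjusted p in limma, over the 7535 probe sets tested, was under 0.05.

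Of the 7 probe sets, 6 passed the filter on low values (an intensity of about 39.7 on average) and were tested. At 400 mg/kg/day against vehicle at 15 days, 2 of these 6 rose and none fell, where 2.14% of all probe sets tested were called in either direction and 1.26% rose. Their median change was 0.70, beside -0.03 over all probe sets tested. The members were chosen with earlier results of these data known, so such shares describe them and are no test of the 5 genes as a set. The 4 comparisons of a dose with vehicle at 15 days share the same 3 vehicle animals, so an unusual vehicle animal enters all of them. In bulk liver RNA, fewer cells of a type and less RNA per cell cannot be told apart.

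ME1 31824_at had intensities of 41.7, 158 and 56.8 in the 3 vehicle animals at 15 days. The 400 mg/kg/day animals at 15 days read 487, 448, 356 and 302. Every animal at that dose was therefore above every vehicle animal, although vehicle replicate 2 stood well above the other vehicle animals and inside the range of the 150 mg/kg/day group. The mean went from 85.4 ± 63.1 (SD, n = 3) to 398 ± 84.4 (SD, n = 4), a change of 2.18 ± 0.31 (SE), or 4.53-fold, with an adjusted p of 0.000182 in limma. The call held in all 7 fits that each left out 1 of these animals, with the change between 1.69 and 2.65 over all alternatives.

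At the lower doses this ME1 probe set passed no test against vehicle. The readings were 91.9, 63.1, 66.2 and 76.3 at 3 mg/kg/day, and 80.9, 72.3, 141 and 76.4 at 30 mg/kg/day. At 150 mg/kg/day they were 164, 144, 122 and 132. All of these groups overlapped the vehicle range. The changes against vehicle were -0.01 ± 0.31, 0.23 ± 0.31 and 0.79 ± 0.31 (SE) at 3, 30 and 150 mg/kg/day, with adjusted p of 0.996, 0.851 and 0.304 in limma. Without vehicle replicate 2 these changes were 0.47, 0.70 and 1.27, with adjusted p of 0.642, 0.437 and 0.0559, and without vehicle replicate 1 they were -0.33, -0.09 and 0.47. At 30 mg/kg/day the change was also 0.08 without vehicle replicate 3 and 0.04 without replicate 3 of the dose. At 3 mg/kg/day the sign turned positive without replicate 2 or 3 of the dose (0.06 and 0.04) and under quantile normalization (0.04), median scaling (0.03), a pseudocount of 1 (0.03) and the replicate block (0.04).

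ME1 837_s_at, whose suffix marks probes that may match more than 1 similar transcript, gave the same order at the top of the dose range with a smaller change. The vehicle animals at 15 days read 263, 257 and 170.4, and the 400 mg/kg/day animals 745, 470.4, 604 and 465. The groups did not overlap, and the change was 1.25 ± 0.28 (SE), or 2.38-fold, with an adjusted p of 0.0154 in limma. This call was lost without vehicle replicate 3 (1.06 ± 0.31, adjusted p = 0.0953) or without 400 mg/kg/day replicate 1 (1.12 ± 0.30, adjusted p = 0.0666). At 3 mg/kg/day this probe set read 202, 193, 171 and 106, and at 30 mg/kg/day 319, 121, 191 and 160.0. At 150 mg/kg/day it read 209, 316, 203 and 354, which also overlapped vehicle. Its changes at 3, 30 and 150 mg/kg/day were -0.43 ± 0.28, -0.26 ± 0.28 and 0.20 ± 0.28 (SE), none of them called in limma.

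The third ME1 probe set, 33644_at, was too dim to pass the filter and disagreed with the others in direction. It was below an intensity of 39.7 on 21 of 23 arrays, with a lowest value of 5.1, a median of 12.9 and a highest value of 62.8. At 400 mg/kg/day at 15 days it read 10.2, 6.4, 11.1 and 17.0, within the vehicle range of 8.9 to 35.3. Fitted without the filter its change was -0.48 ± 0.40 (SE), with an adjusted p of 0.82 in limma. The rise of ME1 therefore rests on 2 of its 3 probe sets.

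The plot of ME1 by group shows the ordering of levels. On 31824_at the group means ran from vehicle at 4 days through 3 mg/kg/day, vehicle at 15 days, 30 and 150 mg/kg/day to 400 mg/kg/day at 4 days and then at 15 days. Neighbours in that order overlapped up to 150 mg/kg/day, and the last 2 steps were separate. On 837_s_at the order was vehicle at 4 days, 3 and 30 mg/kg/day, vehicle at 15 days, 150 mg/kg/day, and 400 mg/kg/day at 4 and at 15 days, and only the last step was free of overlap.

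Against 3 mg/kg/day, a comparison that does not use the vehicle animals, 3 of the 6 probe sets tested rose at 400 mg/kg/day, where 4.18% of all probe sets tested were called. ME1 31824_at rose 4.54-fold (2.18 ± 0.28, SE; adjusted p = 4.82e-05 in limma) and ME1 837_s_at rose 3.21-fold (1.68 ± 0.26, SE; adjusted p = 0.000317). SREBF1 was the third. With FASN, 4 of the 6 separated upward without overlap, as did 5.75% of all probe sets tested. Both ME1 probe sets also had a called slope over the 5 dose steps from vehicle to 400 mg/kg/day, spaced equally, of 0.52 ± 0.07 and 0.31 ± 0.06 (SE) per step, with adjusted p of 4.65e-05 and 0.00361 in limma. For this slope, 3.11% of all probe sets tested were called and 3 of the 6 tested here were, the third again being SREBF1. These calls held in every fit that left out 1 animal.

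SREBF1 was bright and varied little between animals, and its level climbed from 3 mg/kg/day upward. The vehicle animals at 15 days read 464, 516 and 539, and the 3 mg/kg/day animals 516, 421, 420 and 355. At 30 mg/kg/day the values were 592, 689, 656 and 548, and at 150 mg/kg/day 778, 758, 636 and 690. The 400 mg/kg/day animals read 826, 1078, 716 and 678. All 12 animals at 30 mg/kg/day and above exceeded all 3 vehicle animals, and all exceeded the 4 animals at 3 mg/kg/day.

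The group means of SREBF1 were 506 ± 38.4 (SD, n = 3) for vehicle, 428 ± 66.3 at 3, 621 ± 63.0 at 30, 716 ± 65.0 at 150 and 824 ± 180 at 400 mg/kg/day (SD, n = 4 each). The slope was 0.21 ± 0.04 (SE) per dose step, with an adjusted p of 0.00341 in limma, and 400 exceeded 3 mg/kg/day 1.88-fold (0.91 ± 0.17, SE; adjusted p = 0.00219). Against vehicle the change at 400 mg/kg/day was 0.67 ± 0.18 (SE), or 1.59-fold, and the adjusted p of 0.0599 missed the threshold. Over the alternatives that p ran from 0.0345 to 0.223, and it passed in 4 of them, with a filter at the 60th percentile (0.0425), array weights (0.0483), a replicate block (0.0345) and only the 15-day groups (0.048). The changes against vehicle at 150, 30 and 3 mg/kg/day were 0.49 ± 0.18, 0.29 ± 0.18 and -0.24 ± 0.18 (SE), with adjusted p of 0.288, 0.638 and 0.695.

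Separation from vehicle without overlap is common in groups of this size. Higher values without overlap were seen for 6.72% of all probe sets tested at 400, 5.16% at 150 and 4.03% at 30 mg/kg/day. Of the 6 probe sets tested here, 3 separated upward at 400 mg/kg/day (both of ME1 and SREBF1), and SREBF1 alone did at 150 and at 30 mg/kg/day.

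No member was called against vehicle at 150, 30 or 3 mg/kg/day in limma. Over all probe sets tested the share called was 0.677% at 150, 0.0133% at 30 and 0% at 3 mg/kg/day. At an unadjusted p under 0.05 there were 3 of the 6 at 150 mg/kg/day, among them FASN with a negative change, beside 850 of all 7535 probe sets tested, and none at 30 or 3 mg/kg/day, beside 740 and 757 of 7535.

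FASN, the enzyme that completes palmitate, showed wide differences between animals on the same dose. The vehicle animals at 15 days read 516, 266 and 175. The 3 mg/kg/day animals read 342, 294, 44.7 and 344, the 30 mg/kg/day animals 323, 152, 97.0 and 98.8, and the 150 mg/kg/day animals 190, 51.0, 220.4 and 27.9. At 400 mg/kg/day the values were 555, 428, 516 and 470.3. The highest animal was 7.69 times the lowest at 3 mg/kg/day and 7.90 times at 150 mg/kg/day, but 1.3 times at 400 mg/kg/day, where all 4 lay close together. Whether the spread itself differed between doses was not tested.

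The group means of FASN were 319 ± 176 (SD, n = 3) for vehicle, 256 ± 143 at 3, 168 ± 107 at 30, 122 ± 96.9 at 150 and 492 ± 55.0 at 400 mg/kg/day (SD, n = 4 each). None of the differences from vehicle was called. The change was 0.73 ± 0.60 (SE) at 400 mg/kg/day (adjusted p = 0.727 in limma, 95% interval -0.53 to 1.98) and -1.48 ± 0.60 at 150 mg/kg/day (adjusted p = 0.342, 95% interval -2.74 to -0.23). At 30 and 3 mg/kg/day it was -0.89 ± 0.60 and -0.46 ± 0.60 (SE), with adjusted p of 0.66 and 0.843, and the change at 3 mg/kg/day was 0.16 without replicate 3 of that dose, which read 44.7. The slope over dose steps was 0.04 ± 0.13 (SE), with an adjusted p of 0.928 in limma.

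Because the 150 mg/kg/day mean was the lowest and the 400 mg/kg/day mean the highest at 15 days, 400 was also set against 150 mg/kg/day, a comparison chosen after the values were seen. Every FASN value at 400 mg/kg/day was above every value at 150 mg/kg/day, and the difference was 2.21 ± 0.56 (SE), or 4.63-fold, with an adjusted p of 0.0798 in limma, which missed the threshold. Of all probe sets tested, 3.61% separated upward in this comparison and 0.491% were called. ME1 31824_at was the 1 member of 6 called there, at 2.61-fold (1.39 ± 0.28, SE; adjusted p = 0.0238), and it lost that call without 150 mg/kg/day replicate 2, 3 or 4 or 400 mg/kg/day replicate 1 or 2 (adjusted p from 0.0606 to 0.0791, change from 1.29 to 1.40). ME1 837_s_at differed by 1.05 ± 0.26 (adjusted p = 0.0756) and SREBF1 by 0.18 ± 0.17 (adjusted p = 0.771).

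**Figure D1:**
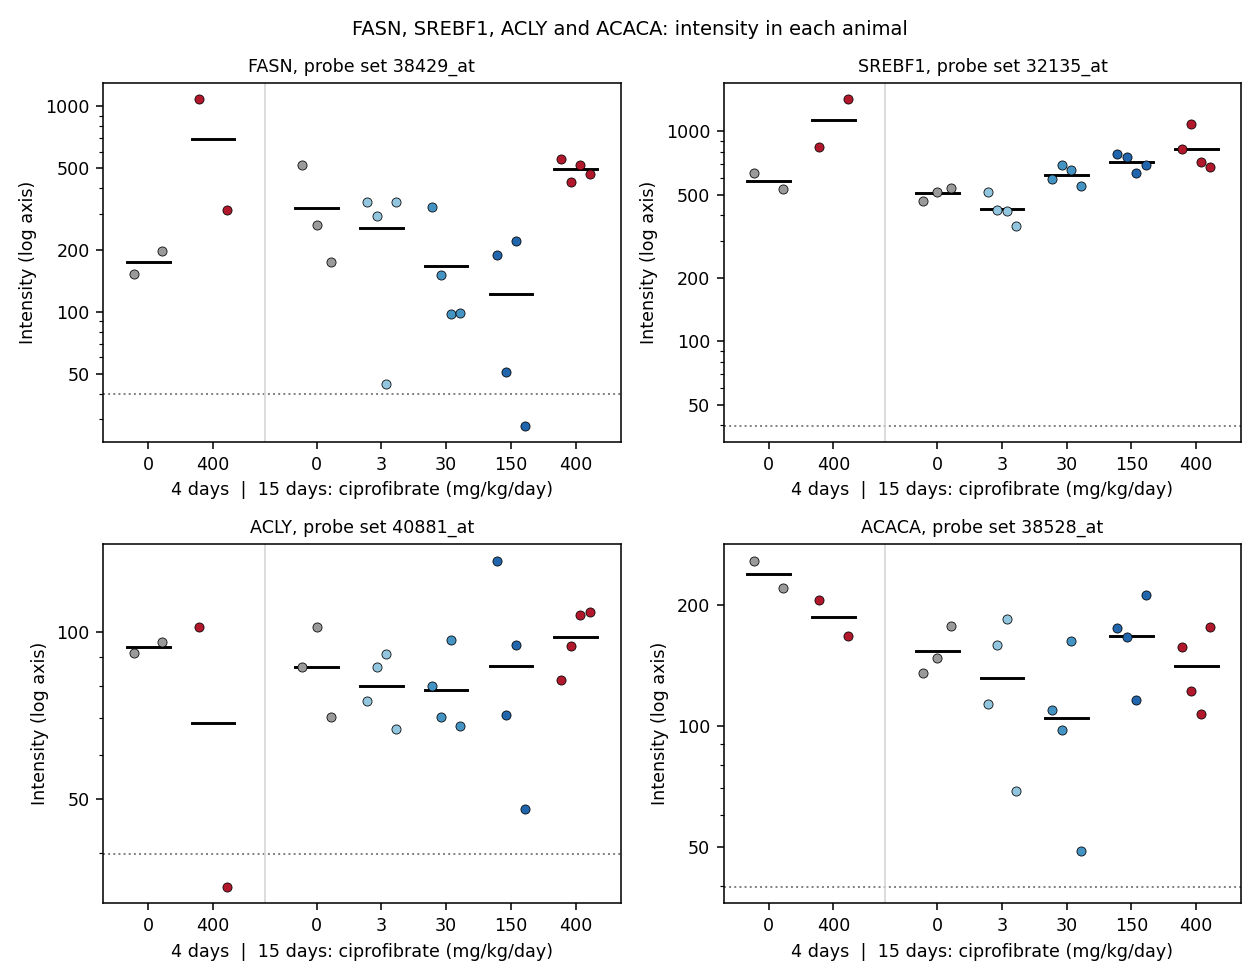
Intensity (log axis) of FASN, SREBF1, ACLY and ACACA in each animal by dose (mg/kg/day) and day, with points for animals, bars for group means and a dotted line at the filter intensity of 39.7. FASN is widely spread at 3 and 150 mg/kg/day and close together at 400 mg/kg/day at 15 days, SREBF1 steps up from 3 to 400 mg/kg/day, and ACLY and ACACA at 15 days overlap vehicle at every dose.

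The panels for ACLY and ACACA show the entry steps of the pathway. ACLY read 86.6, 102 and 70.4 in the vehicle animals at 15 days and 82.0, 94.5, 107 and 109 at 400 mg/kg/day, so the groups overlapped. Its change was 0.16 ± 0.31 (SE), with an adjusted p of 0.905 in limma and a 95% interval from -0.47 to 0.79. At 3, 30 and 150 mg/kg/day its 12 values lay between 48.0 and 134, and the changes were -0.09, -0.11 and -0.05 (SE 0.31 each). The interval leaves room for a change of either sign up to about its bounds, so a small rise or fall was not detectable with these numbers of animals.

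ACACA, which commits acetyl-CoA to fatty acid synthesis, read 135, 148 and 178 in the vehicle animals at 15 days and 157, 122, 107 and 176 at 400 mg/kg/day. The change was -0.13 ± 0.32 (SE), with an adjusted p of 0.931 in limma and a 95% interval from -0.78 to 0.53. The lowest group was 30 mg/kg/day, at 110, 97.6, 163 and 48.7, which overlapped vehicle and differed from it by -0.57 ± 0.32 (adjusted p = 0.566). At 3 and 150 mg/kg/day the changes were -0.27 ± 0.32 and 0.09 ± 0.32 (SE).

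**Figure D2:**
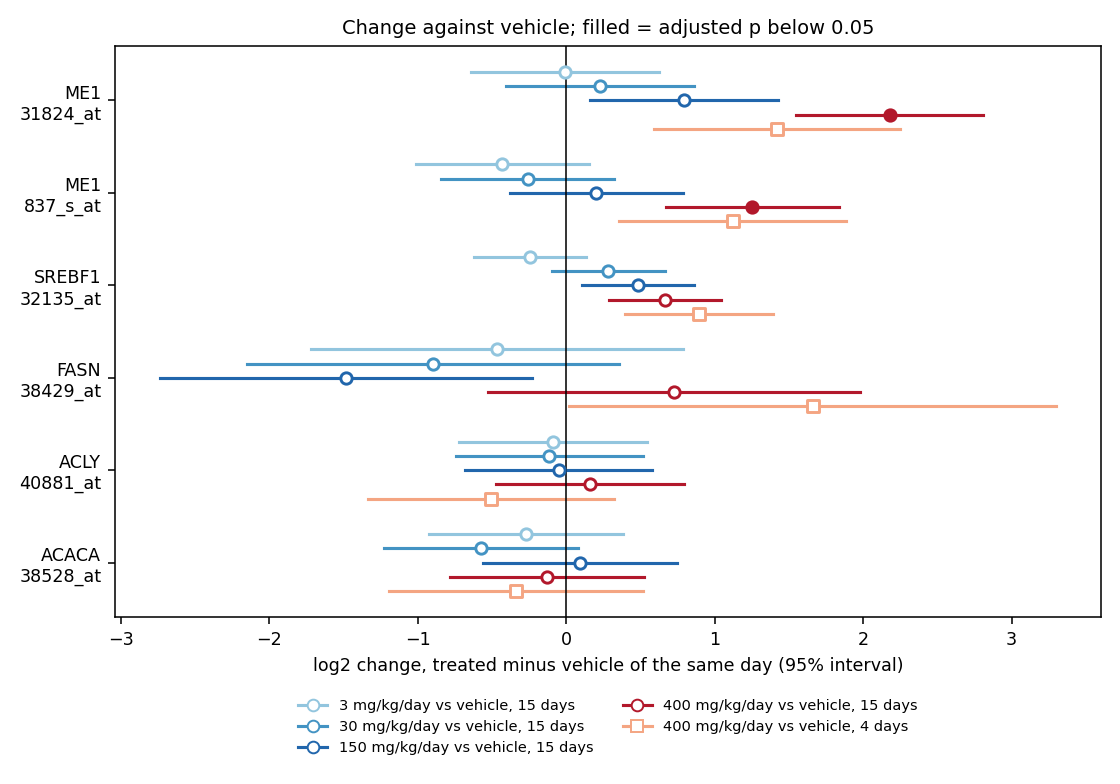
Change in log2(intensity + 16) against vehicle of the same day for each tested probe set of the 5 genes at each dose, with the estimate as a point, filled where called, and its 95% interval as a bar. Both ME1 probe sets stand above 0 at 400 mg/kg/day at 15 days (2.18 and 1.25), SREBF1 rises from -0.24 at 3 to 0.67 at 400 mg/kg/day, and the wide bars of FASN reflect an SE of 0.60 at 15 days.

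The plot of changes sets these members side by side, and whether they responded unequally was tested on the animals themselves. In each of the 19 animals at 15 days the difference in log2 value between a pair of genes was taken, and its slope over dose steps was tested by a permutation test over animals (100000 resamples, two-sided), with ME1 by 837_s_at, its brightest probe set. Of 10 pairs, 3 passed after Benjamini-Hochberg adjustment. ME1 gained on ACLY by 0.30 per dose step (permutation p = 0.00656, adjusted p = 0.0289) and on ACACA by 0.32 (permutation p = 0.00344, adjusted p = 0.0289). SREBF1 gained on ACLY by 0.17 per step, since the slope of ACLY minus SREBF1 was -0.17 (permutation p = 0.00866, adjusted p = 0.0289).

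These calls are near the threshold. ME1 against ACLY and ME1 against ACACA each lost theirs in 6 of 19 fits that left out 1 animal (adjusted p up to 0.0693), and ACLY against SREBF1 in 8 of 19 (up to 0.0833) and under 2 other settings. No pair passed without 3 mg/kg/day replicate 2, 3 or 4, or without 400 mg/kg/day replicate 1, 2 or 3. With ME1 by 31824_at, a choice added after the values were seen, 6 of the 10 pairs passed, and ME1 gained on all the other genes, on FASN by 0.47 (adjusted p = 0.0312) and on SREBF1 by 0.32 (adjusted p = 0.00653) per step. With 837_s_at those slopes were 0.27 (adjusted p = 0.295) and 0.13 (adjusted p = 0.306), neither of which passed. FASN against ACLY, ACACA or SREBF1 did not pass. These pairs hold no ME1 value, so the choice of ME1 probe set cannot alter their slopes.

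**Figure D3:**
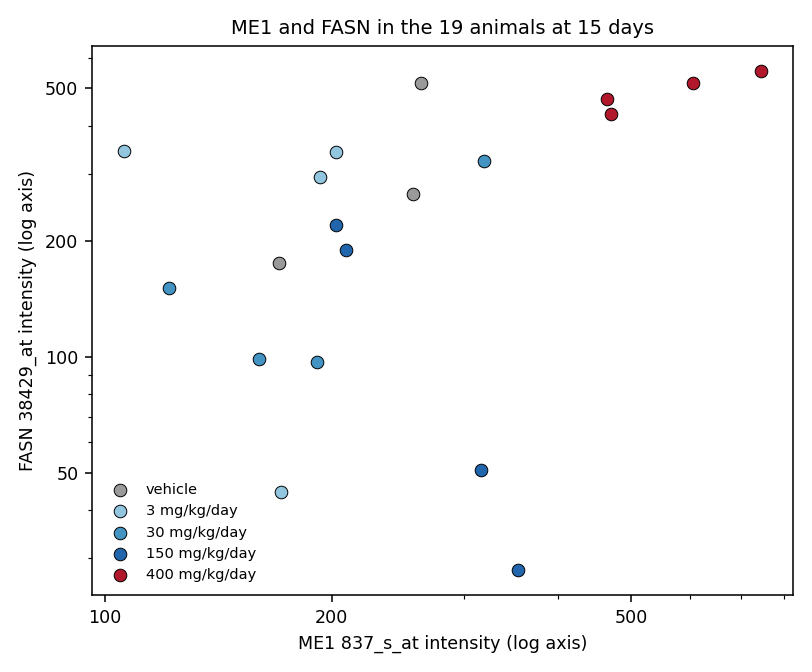
FASN 38429_at intensity against ME1 837_s_at intensity (both log axes) in the 19 animals at 15 days, with points for animals and colours for dose. The 4 animals at 400 mg/kg/day sit together at high ME1 and high FASN. The lowest FASN values are in 150 mg/kg/day replicates 4 and 2 and 3 mg/kg/day replicate 3. The last 2 of these animals have ME1 levels inside the range of other groups. Replicate 4 at 150 mg/kg/day has the highest ME1 (354) of all animals below 400 mg/kg/day.

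The plot of FASN against ME1 shows that ME1 was highest in the 400 mg/kg/day animals. Below this dose FASN ranged from 27.9 to 516 and ME1 837_s_at from 106 to 354. Vehicle replicate 1 had a FASN value (516) inside the range of the 400 mg/kg/day animals, with ME1 at 263, the highest of its group. Replicate 1 at 30 mg/kg/day was the highest of its group for both (FASN 323, ME1 319). Replicate 4 at 150 mg/kg/day had the lowest FASN of all (27.9) and the highest ME1 837_s_at of its group (354).

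After 4 days at 400 mg/kg/day the changes of ME1, FASN and SREBF1 were all positive, with only 2 animals a group. ME1 31824_at read 62.2 and 65.5 with vehicle and 213 and 184 with drug, and ME1 837_s_at 134 and 156 against 351 and 318. FASN read 153 and 197 with vehicle and 1079 and 313 with drug, and SREBF1 632 and 534 against 844 and 1418. The FASN values with drug were uneven, with replicate 1 at 3.45 times replicate 2. None was called in limma, with changes of 1.42 ± 0.40, 1.12 ± 0.37, 1.66 ± 0.79 and 0.90 ± 0.24 (SE) and adjusted p of 0.168, 0.302, 0.641 and 0.151, where 0.292% of all probe sets tested were called. All 4 of these probe sets had an unadjusted p under 0.05, as did 575 of the 7535 tested, and all 4 separated upward, as did 18.4% of all probe sets tested with so few animals. With array weights, ME1 31824_at and SREBF1 were called (adjusted p = 0.033 and 0.0279).

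ACLY and ACACA had negative estimates at 4 days. ACLY read 91.8 and 95.9 with vehicle and 102 and 34.7 with drug, and its change of -0.51 ± 0.40 (SE; adjusted p = 0.927 in limma) turned positive (0.10) when replicate 2 of the drug group was left out. ACACA read 258 and 220.5 with vehicle and 206 and 167 with drug, without overlap, a change of -0.34 ± 0.41 (adjusted p = 0.999). Lower values without overlap were seen for 23.6% of all probe sets tested.

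Whether 400 mg/kg/day acted differently at 15 than at 4 days was tested directly. No member was called for the difference between the effects, and none of the 7535 probe sets was (0%), with 254 at an unadjusted p under 0.05 in limma and none of the members among them. The difference for ME1 31824_at was 0.76 ± 0.50 (SE, 95% interval -0.28 to 1.80) and for FASN -0.94 ± 1.00 (95% interval -3.00 to 1.13), so differences of over 1 log2 unit in either direction for FASN lie within the interval. Vehicle animals at 15 and at 4 days differed in no member in limma, where 0.863% of all probe sets tested were called, and no member had an unadjusted p under 0.05.

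The genes around the pathway were read from 8 lists by role, with 87 genes, of which 58 had a probe set and 47 passed the filter. The lists were chosen with earlier results of these data known. Their shares called, set beside those of all probe sets tested, are therefore a description and no test of the lists. At 400 mg/kg/day against vehicle at 15 days, 4 of the 47 rose and none fell (8.51%, beside 2.14% of all probe sets tested), and the median change was 0.11. The desaturases and elongases, which reshape fatty acids after synthesis, held 3 of the 4, with 4 tested. FADS2, the delta-6 desaturase of polyunsaturated fatty acids, went from 37.0 to 972 (4.22 ± 0.64, SE; adjusted p = 0.000403 in limma), and its vehicle mean lay below the filter intensity. SCD, which makes oleate, went from 119 to 1091 (3.11 ± 0.59; adjusted p = 0.00415), and ELOVL5, an elongase of polyunsaturated chains, from 176 to 572 (1.63 ± 0.26; adjusted p = 0.000953). NSDHL, a cholesterol synthesis enzyme, was the fourth, from 257 to 539 (1.05 ± 0.21; adjusted p = 0.00675), and it lost its call without vehicle replicate 2 (adjusted p = 0.073).

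The lists closest to the 5 genes in role held no call at 400 mg/kg/day against vehicle. In NADPH supply, which also serves fatty acid synthase, all 4 genes tested had positive estimates with a median of 0.56, among them the cytosolic isocitrate dehydrogenase IDH1 (0.78 ± 0.22, SE; adjusted p = 0.063) and the pentose phosphate enzyme TKT (0.83 ± 0.33; adjusted p = 0.27). The other malic enzymes ME2 and ME3 were below the filter, with median intensities of 9.7 and 15.0. ACACB, the carboxylase of the mitochondrial surface whose malonyl-CoA restrains fatty acid oxidation, changed by 0.65 ± 0.21 (adjusted p = 0.125), which was not called. The citrate carrier SLC25A1, which supplies ACLY, had an estimate of -0.35 ± 0.21 (adjusted p = 0.564).

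None of the 8 tested genes that control SREBP or ChREBP was called, with a median of -0.17. In the glycolytic supply list all 4 were uncalled with a median of -0.57, including PKLR, the liver pyruvate kinase (-0.61; adjusted p = 0.331). Of 13 cholesterol synthesis genes tested NSDHL alone rose and the median was 0.13. Of the 7 glycerolipid genes none was called, and LPIN1, a phosphatidate phosphatase, had an estimate of 1.23 ± 0.40 (adjusted p = 0.132), with a vehicle mean of 26.5, below the filter intensity.

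**Figure D4:**
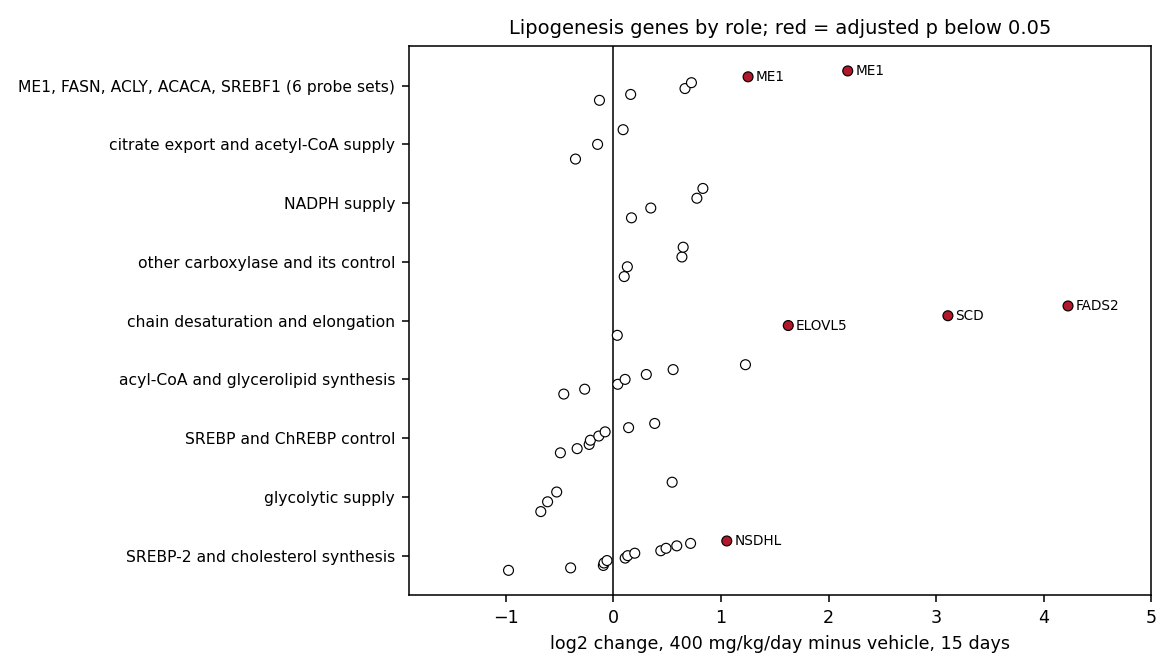
Change in log2(intensity + 16) at 400 mg/kg/day against vehicle at 15 days of each tested gene, by role in the pathway, with 1 point per gene (per probe set for the 5 genes) and called ones red and named. FADS2 and SCD stand highest (4.22 and 3.11), followed by ME1 31824_at (2.18) and ELOVL5 (1.63), and the citrate, SREBP control and glycolytic lists lie mostly below 0.

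In the plot by role FADS2, SCD and ELOVL5 have larger estimates than FASN, ACLY and ACACA, a difference between genes that was not tested. At lower doses and at 4 days the lists held fewer calls. At 150 mg/kg/day 4.26% of the 47 genes were called, beside 0.677% of all probe sets tested. At 4 days it was 2.13%, beside 0.292%. At 150 mg/kg/day 2 of 47 rose, FADS2 (3.46) and NSDHL (1.06), and both lost the call in some fits that left out 1 animal, FADS2 without vehicle replicate 2 (adjusted p = 0.0516) and NSDHL without vehicle replicate 2 (0.146) or 150 mg/kg/day replicate 1 (0.0551) or 4 (0.0556). At 30 and 3 mg/kg/day none was called in limma, with 7 and 5 of 47 at an unadjusted p under 0.05, beside 740 and 757 of all 7535 probe sets tested, which is close to the background. At 4 days FADS2 alone was called (3.80 ± 0.83, SE; adjusted p = 0.0496 in limma), and not when any of its 4 animals was left out, with adjusted p from 0.0506 to 0.687.

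Against 3 mg/kg/day, 6 of 47 were called at 400 mg/kg/day (12.8%, beside 4.18% of all probe sets tested). FADS2 (4.92), SCD (3.95), ELOVL5 (2.19) and TKT (1.08 ± 0.31, SE; adjusted p = 0.0464 in limma) rose. The FADS2 mean at 3 mg/kg/day was 16.4, below the filter intensity, and FADS2 passed the filter through the groups where it is high. PKLR (-1.0 ± 0.25; adjusted p = 0.0214) and DGAT1, which completes triglyceride (-1.39 ± 0.39; adjusted p = 0.043), fell. TKT lost its call in 5, DGAT1 in 7 and PKLR in 4 of the 8 fits that left out 1 animal, with adjusted p up to 0.126, 0.124 and 0.0832. The slope over dose steps was called for 5 of 47 (10.6%, beside 3.11% of all probe sets tested), all of them upward. They were FADS2 (1.26 per step), SCD (0.84), ELOVL5 (0.42), LPIN1 (0.32 ± 0.09 SE, adjusted p = 0.0459 in limma) and NSDHL (0.24). The LPIN1 means with vehicle and at 3 mg/kg/day (26.5 and 38.9) lay below the filter intensity, so it passed the filter through its other groups. LPIN1 lost that call in 11 of the 19 fits that left out 1 animal (adjusted p up to 0.204). For 400 against 150 mg/kg/day ELOVL5 alone was called (1.27, adjusted p = 0.0205 in limma), 2.13% of the 47 beside 0.491% of all probe sets tested. It lost the call without 150 mg/kg/day replicate 2 or 3 or 400 mg/kg/day replicate 1, 2 or 4 (adjusted p from 0.0522 to 0.0668).

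For each member the 3 genes whose log2 values ran most like it over the 23 arrays were listed, as a description. They were picked from 5462 genes with a tested probe set naming 1 gene, members left aside. How high r runs in a search of this size was not tested. The arrays share the dose groups, so genes that differ between the same groups correlate. ME1 31824_at ran with COX6A1, a subunit of cytochrome c oxidase (r = 0.86), ELOVL5 (0.86) and the aldo-keto reductase AKR1B10 (0.85). ME1 837_s_at ran with COX6A1 (0.83), CLDN10 (0.82) and AKR1B10 (0.78). The vehicle means of AKR1B10 and CLDN10 at 15 days (33.4 and 29.8) lay below the filter intensity. COX6A1 rested on group differences, going from 9064 ± 83.4 (SD, n = 3) with vehicle to 14642 ± 1073 (SD, n = 4) at 400 mg/kg/day at 15 days, with a correlation within groups of -0.09 to ME1 31824_at.

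SREBF1 ran with the mitochondrial fatty acid oxidation genes ETFA (r = 0.86 over 23 arrays) and HADHA (0.77) and with the fatty acid binding protein FABP1 (0.79). ETFA went from 1277 ± 277 (SD, n = 3) to 2763 ± 459 (SD, n = 4) between vehicle and 400 mg/kg/day at 15 days. The correlation with SREBF1 within groups was 0.55 for ETFA, 0.40 for HADHA and 0.29 for FABP1. Unlike SREBF1, HADHA had a higher mean at 150 (1492) than at 400 mg/kg/day (1284) at 15 days. FASN ran with ETHE1 (0.74), SNU13 (0.68) and LDB1 (0.68). ACLY ran with CHRNA2 (0.69), PPP2R3A (0.67) and RNGTT (0.66), and ACACA with NDRG2 (0.77), HSPB3 (0.75) and DELE1 (0.72).

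Liver identity and array quality were read beside these results. Hepatocyte markers were high in every animal, with 9 of 9 listed genes measured and a summed intensity of 75177 to 85698 in vehicle animals at 15 days and 64036 to 77107 at 400 mg/kg/day. Adipocyte markers, which matter because fat tissue also expresses the pathway, summed to 1804 to 2109 and 1609 to 2027 in these groups. Of the 7 listed, ADIPOQ and LEP had medians of 7.5 and 9.5, below the filter. The other 5 passed it, with medians of 809 for CFD, 564 for LIPE, 230 for PLIN1, 68.5 for LPL and 65.4 for FABP4. Whether fat tissue contributed was not tested. Summed markers were lower at 400 mg/kg/day than with vehicle at 15 days without overlap for 3 lists. These were Kupffer cells (3895 to 5406 against 2482 to 3418, 8 of 9 genes measured), endothelial cells (1526 to 1725 against 777 to 1240, 7 of 8 measured) and stellate cells (1152 to 1750 against 798 to 1059, 8 of 9 measured). Each sum is weighted to its brightest gene, CD14 (median 2419.5), FCN3 (673) and VIM (635). How often such sums separate in groups of this size was not tested, nor was their part in the results. Sums also lay below the same 3 vehicle animals without overlap at lower doses. The endothelial sum did at 3 (1015 to 1423) and 150 mg/kg/day (868.5 to 1162), and the Kupffer sum at 150 mg/kg/day (3361 to 3788). The T and NK cell and red cell sums did at 3 mg/kg/day, and the cholangiocyte sum at 30 mg/kg/day. At 4 days the Kupffer, endothelial and stellate sums were also lower with drug without overlap, and so was the hepatocyte sum (58816 to 62273 against 54157 to 54641). The same held for red cell (4805 to 5197 against 1646 to 3364), T and NK cell (592 to 714 against 364 to 421) and cholangiocyte markers (143 to 166 against 118 to 124). With 2 animals a group, 23.6% of all probe sets tested were also lower without overlap at 4 days. At 400 mg/kg/day against vehicle at 15 days, TIMP1 of the stellate list fell (-1.81). TIMP1 was dim, with a median of 47.6 and values from 26.3 to 285 over all arrays. It was the 1 called of 7 tested on that list, of which 1 was positive with a median of -0.43. On the same list 1 of 7 was called lower at 150 mg/kg/day and 1 for the slope over dose steps. For that slope 2 of 7 Kupffer cell markers were called lower. Against 3 mg/kg/day, HP of the hepatocyte list fell (-1.09), the 1 called of 9 tested, of which 4 were positive with a median of -0.0033. CD14 (-0.78) and MARCO (-2.21) fell too, the 2 called of 7 Kupffer cell markers tested, of which 2 were positive with a median of -0.39. PLIN1, a lipid droplet protein on the adipocyte list, rose (1.11, from 152 to 342, adjusted p = 0.00722 in limma). PLIN1 was the 1 called of 5 adipocyte markers tested, of which 2 were positive with a median of -0.02. The ratio of 5' to 3' ACTB control probes, a measure of RNA integrity, was 0.574 ± 0.033 (SD, n = 3) for vehicle and 0.681 ± 0.126 (SD, n = 4) for 400 mg/kg/day at 15 days, and 0.868 ± 0.170 and 1.12 ± 0.13 (SD, n = 2 each) at 4 days, where the groups did not overlap and its part was not tested either. The same ratio for GAPDH overlapped between these groups, at 0.947 to 0.993 with vehicle and 0.974 to 1.17 with drug at 4 days, and at 0.721 to 1.31 and 0.964 to 1.25 at 15 days.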

How the data were processed

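Liver RNA of 23 monkeys was measured on 1 array each. Per the labels' protocols, frozen tissue of the right lateral lobe gave total RNA (TRIzol) and biotin-labelled cRNA. The deposited unit is probe set intensity on a linear scale. Per the submitters' processing notes the authors used MAS5, with version and settings not given in the sources used here. Trimmed means (2%) of the arrays lay between 150.065 and 150.08, so no further scaling was applied. Of 12625 probe sets, 67 controls were left out. Values were converted to log2(value + 16), and probe sets at or above the 40th percentile of mean log2 (5.80) were tested, which left 7535. Of all probe sets, 10961 named 1 gene, 545 several and 1119 none, per the array annotation.

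Arrays were grouped by their labels into 7 dose and day groups, and 1 means model was fitted to all arrays with limma 3.58.1 in R 4.3.3 (16 residual and 6.63 prior degrees of freedom, intensity trend). Tests were two-sided, with Benjamini-Hochberg adjustment over all probe sets tested. The labels call the animals biological replicates. The correlation of an array with its own group was 0.868 to 0.930. The number of arrays limits the precision. The fit was tested on simulated data.

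All member probe sets were named, with up to 4 called genes of a list, or else up to 3 with the smallest p, and the 3 genes most like each member. The members and lists were chosen with earlier results of these data known. Animals with the same replicate number did not deviate together (mean correlation -0.0023 over 58 pairs). Alternatives covered the pseudocount, filter, scaling, variance settings, array weights, replicate block, dose scores and leaving out each animal.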

Additional observations from a re-analysis of the deposited data

Results flagged for a closer look

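In 28 groups of 4 animals a single value was tested for standing apart from the rest, where chance gives about 1 in 20, or 1.4 here, and 3 did. FASN 38429_at read 44.7 in 3 mg/kg/day replicate 3, against 294 to 344 in the other 3 animals. ME1 31824_at read 141 in 30 mg/kg/day replicate 3, against 72.3 to 80.9 in the others. The dim ME1 33644_at read 61.6 in 150 mg/kg/day replicate 3, against 8.6 to 12.9 in the others.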

How the results depend on the processing

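The numbers of animals, 2 to 4 a group, limit what could be detected, most of all at 4 days and for FASN. The count of member probe sets called stayed at 3 for 400 against 3 mg/kg/day and for the slope under every alternative run. At 15 days it was 2 for 400 mg/kg/day against vehicle, 1 to 2 when 1 animal was left out and up to 3 otherwise, and 0 at 4 days but 2 with array weights. It was 1 for 400 against 150 mg/kg/day and 0 to 1 when 1 animal was left out. With the replicate block it was 3 at 15 days for 400 mg/kg/day against vehicle, SREBF1 being added, and no other member count changed. Differences in slope between member genes passed for 3 pairs, for 0 to 4 when 1 animal was left out and for 6 with ME1 by its other tested probe set. Of the 47 pathway genes, 6 were called for 400 against 3 mg/kg/day and 3 to 7 over the alternatives, 2 at 150 mg/kg/day and 0 to 3 (1 with the replicate block), 4 at 400 mg/kg/day at 15 days and 3 to 6, and 1 at 4 days and 0 to 2. Counts over all probe sets moved more. At 15 days 161 were called for 400 mg/kg/day, 252 with array weights and 93 without vehicle replicate 1; 51 for 150 mg/kg/day, 28 without the intensity trend and 13 without vehicle replicate 2. For 400 against 150 mg/kg/day 37 were called, 9 without the trend and 4 without 150 mg/kg/day replicate 3. At 4 days 22 were called, 3 without the trend, 113 with array weights and 2 without vehicle replicate 1, and between the vehicle groups 65, 39 without the trend, 262 with array weights and 10 without 4-day vehicle replicate 2. At 30 mg/kg/day 1 was called and 0 to 5 otherwise, and at 3 mg/kg/day 0 and up to 4. The cause was not tested.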
